A study of Mus musculus with 4 samples.

Results

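Lats1 and 5 genes whose products act on the LATS kinases or beside them (Ajuba, Amotl2, Ptpn14, Wwc2 and Taok3) are described here from RNA-seq of the mouse pylorus. They were taken by symbol from a deposited differential expression table, where all 6 had a row among 2701 genes. Pyloric stomach of C57BL/6 mice was compared between 2 genotypes, with 2 libraries each, 8 weeks after tamoxifen. Mice of both groups carried loxP-flanked alleles of both kinases (Lats1fl/fl;Lats2fl/fl). Mice named Lats1/2iΔLgr5 also carried Lgr5-CreER, a tamoxifen-activated Cre recombinase driven from Lgr5, a gene of the stem cells at the gland base. The deletion passes on to their progeny. Mice named WT had no Cre, so effects of Cre itself and of the deletion cannot be told apart. RNA came from several 10 µm cryosections per stomach, collected from where epithelium first appeared. The labels call the material pyloric epithelium, but sections hold the other cells of the wall as well. In such bulk samples, fewer cells of a type and less RNA per cell cannot be told apart. The labels give neither the mice's age nor whether a library came from 1 mouse or several, so p-values measure the spread between these libraries.

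In the Hippo pathway, the kinases STK3 and STK4 (also called MST), or kinases of the MAP4K and TAOK families, activate LATS1 and LATS2. The LATS kinases phosphorylate YAP and TAZ, which then stay in the cytoplasm or are degraded. Without that brake, YAP and TAZ enter the nucleus and work with the DNA-binding TEAD factors, which recognise the hexamer GGAATG. Several genes that restrain YAP, among them Amotl2 and Ptpn14, are themselves known targets of YAP and TEAD in other cells, an arrangement described as negative feedback. The comparison shows their transcripts in a tissue in which the kinase genes can be deleted.

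Ajuba, Amotl2, Ptpn14 and Wwc2 were higher in both Lats1/2iΔLgr5 libraries than in either WT library, by 1.95-fold to 6.31-fold. Lats1 and Taok3 were lower, 1.99-fold and 1.56-fold. Groups that do not overlap were found in nearly all listed genes, 42.9% of them higher and 57.1% lower. All 6 genes were called in the authors' deposited table, as were 20.6% of the genes the authors tested (8.81% higher and 11.7% lower). That table holds only called genes and the 6 were taken from it, so nothing is read from this count. For the same reason the directions and tests below are descriptions of genes already selected for a difference. A single gene with 2 libraries against 2 cannot reach a two-sided exact permutation p below 0.333.

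The promoters of the 4 genes that were higher are shown because all 4 hold the TEAD hexamer, and neither of the 2 genes that were lower does. The windows are RefSeq's for GRCm38.p6, from 250 bases before the transcription start to 50 after it, and all 6 genes had a window. The 250 bases before the start are printed 5′ to 3′ in the direction of transcription, with GGAATG or its reverse complement CATTCC in capitals.

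Ajuba (chr14:54577662-54577911, minus strand): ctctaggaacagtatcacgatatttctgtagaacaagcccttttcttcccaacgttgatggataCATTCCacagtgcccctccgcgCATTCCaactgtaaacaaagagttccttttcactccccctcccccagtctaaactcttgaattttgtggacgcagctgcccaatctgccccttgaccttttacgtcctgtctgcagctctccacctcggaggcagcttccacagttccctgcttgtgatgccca
Amotl2 (chr9:102717554-102717803, plus strand): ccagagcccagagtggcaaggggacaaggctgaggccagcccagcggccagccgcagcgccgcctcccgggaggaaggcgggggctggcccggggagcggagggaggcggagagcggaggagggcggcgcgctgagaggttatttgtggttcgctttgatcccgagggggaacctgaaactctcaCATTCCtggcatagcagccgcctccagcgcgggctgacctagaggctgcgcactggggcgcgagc
Ptpn14 (chr1:189728018-189728267, plus strand): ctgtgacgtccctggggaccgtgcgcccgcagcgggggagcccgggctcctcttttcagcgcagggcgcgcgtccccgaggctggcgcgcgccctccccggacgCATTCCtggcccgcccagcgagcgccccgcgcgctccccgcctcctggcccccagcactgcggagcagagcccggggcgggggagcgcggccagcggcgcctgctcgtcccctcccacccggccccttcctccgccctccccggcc
Wwc2 (chr8:47990545-47990794, minus strand): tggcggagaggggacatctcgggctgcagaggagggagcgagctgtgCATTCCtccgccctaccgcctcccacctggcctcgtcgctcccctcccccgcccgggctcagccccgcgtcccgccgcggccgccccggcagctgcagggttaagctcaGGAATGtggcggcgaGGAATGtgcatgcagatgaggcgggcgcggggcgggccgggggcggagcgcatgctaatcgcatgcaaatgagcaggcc

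Ajuba held 2 matches, beginning 186 and 164 bases before the start. Amotl2 held 1 match, at 65 bases before it, and Ptpn14 held 1, at 146 bases before it. In Wwc2 there were 3 matches, at 203, 94 and 79 bases before the start, the last 2 in the forward orientation and the rest of the matches on the opposite strand. No match lay in the windows of Lats1 and Taok3. Of all 32851 windows of this length, 14.7% held the hexamer on either strand, as did 14.3% of the windows of genes higher in the table and 12.4% of those of genes lower in it. The AP-1 site TGANTCA, bound by FOS and JUN factors, is its own reverse complement. It was found in none of the 6 windows and in 7.81% of all windows. Among the members, GC content was 54.0% for Ajuba and 65.3% to 78.3% for the other 5, against a median of 52.7% over all windows. The Amotl2 window starts inside the deposited span of that gene, which has further starts upstream. A match is a stretch of letters, and no binding was measured here.

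**Figure D1:**
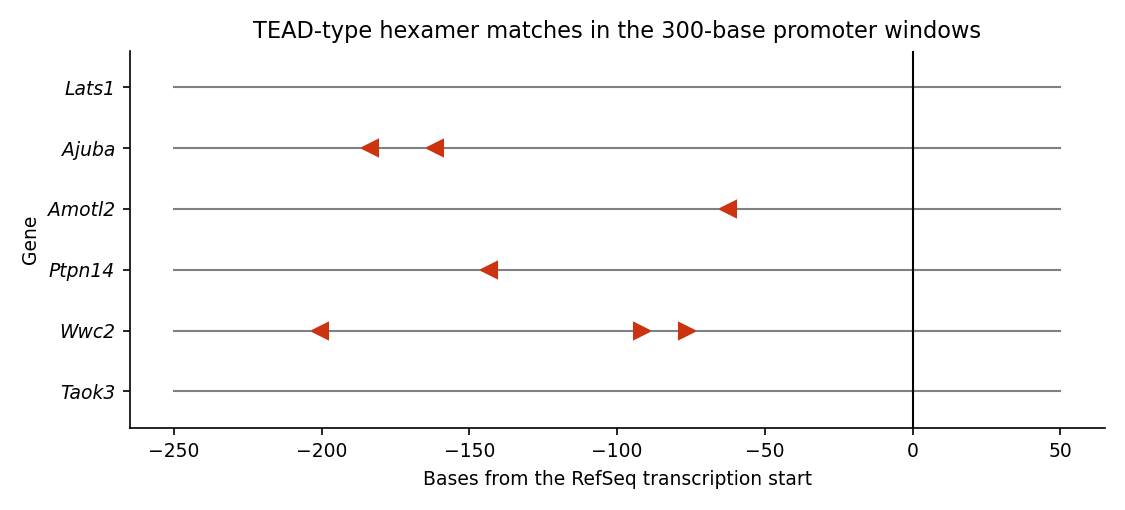
Positions of GGAATG or CATTCC in the promoter windows of the 6 genes, in bases from the RefSeq transcription start (vertical line at 0). Arrowheads pointing right are matches on the transcribed direction's strand and those pointing left are on the other; there are 7 matches in Ajuba, Amotl2, Ptpn14 and Wwc2 and none in Lats1 and Taok3.

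Lats1 (ENSMUSG00000040021, chromosome 10, 7681209 to 7716458, plus strand) encodes the kinase that was targeted. Levels are given as normalized counts, which are read counts divided by the authors' size factor for each library. Lats1 stood at 2152 in WT 1, 1974 in WT 2, 942.5 in Lats1/2iΔLgr5 1 and 1129 in Lats1/2iΔLgr5 2. Every Lats1/2iΔLgr5 library was below every WT library, and the nearest libraries of the groups were 1.75-fold apart, against at most 1.20-fold within a group. The mean went from 2063 ± 125 to 1036 ± 132 (SD, n = 2), a reduction of 49.8%. edgeR put the log2 fold change at -0.99 ± 0.17 (SE), and -0.95 stands in the authors' deposited table, with 1.43e-05 as its adjusted p. GENCODE M21 lists 3 transcripts of the gene, and the longest has 8 exons. Reads were counted over the whole gene, so transcripts that lack only the floxed part still contribute. Lats2, the other floxed gene, had no row in the table and is not analysed here.

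The size of the Lats1 difference depended on how the libraries were scaled. Each other scaling was computed from the listed genes alone, which were all chosen for a difference. The log2 fold change was -0.63 with TMM (edgeR's trimmed mean scaling) and -0.59 with DESeq2 size factors. When each library was divided by its total of listed counts, it was -0.30 (edgeR adjusted p = 0.291). Gkn1 and Gkn2, secreted gastrokines of surface mucous cells, make up much of that total, and leaving them out gave -0.40 (edgeR adjusted p = 0.144). Lats1 was lower in every one of these fits.

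A ratio of 2 genes in the same library is free of scaling. Cdh1 encodes the epithelial junction protein E-cadherin. With the authors' size factors it was itself lower, at 45042 ± 347 in WT and 31421 ± 1606 normalized counts in Lats1/2iΔLgr5 (SD, n = 2). With TMM its log2 fold change was -0.16 (edgeR adjusted p = 0.293), and with both listed totals it was positive. Per kilobase of exon, Lats1 came to 3.01% and 2.73% of the Cdh1 level in WT, against 1.95% and 2.17% of it in Lats1/2iΔLgr5. The groups did not overlap in this ratio, which was 1.39-fold lower in Lats1/2iΔLgr5. Against the epithelial keratin Krt8 the ratio was 0.227% and 0.161% in WT and 0.137% and 0.152% in Lats1/2iΔLgr5, so the groups were apart but nearly touched. Cdh1 and Krt8 were chosen for these ratios after their values were seen.

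**Figure D2:**
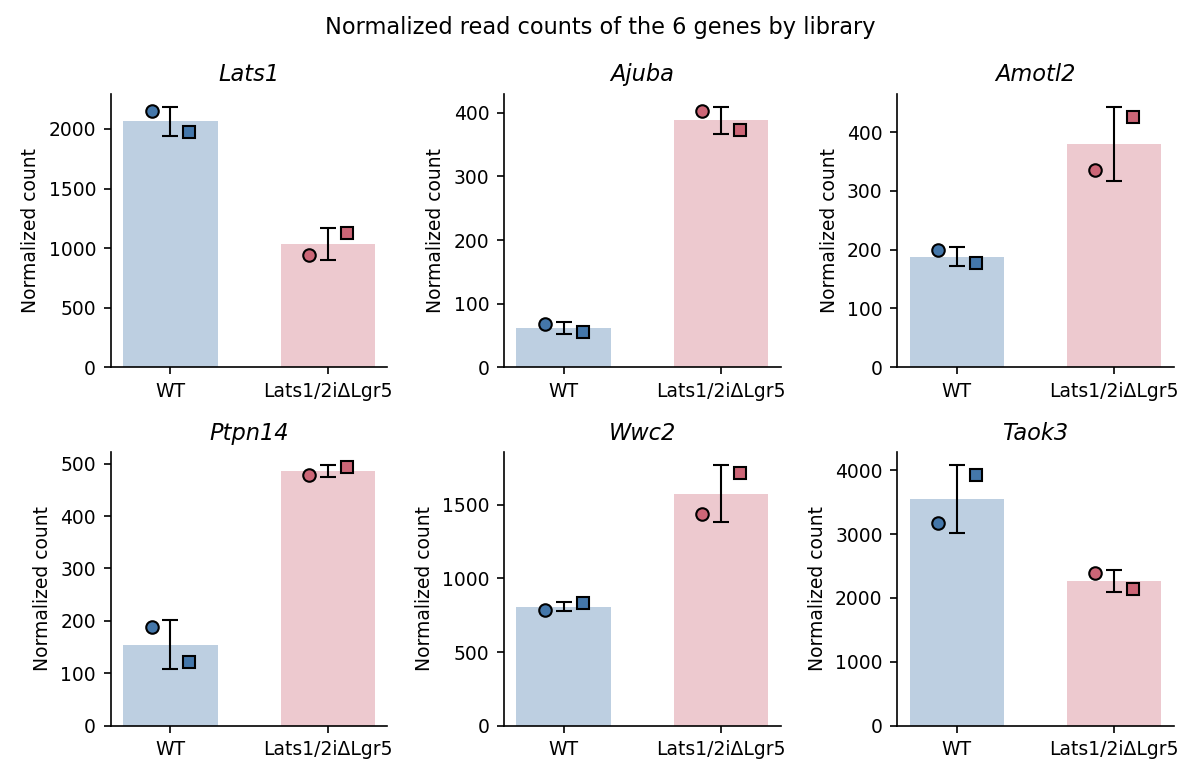
Normalized read counts (linear axes from 0) of the 6 genes in WT and Lats1/2iΔLgr5 libraries. Bars are means of 2 libraries, error bars are SD, circles are replicate 1 and squares replicate 2; in each panel the 2 groups do not overlap.

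Taok3 (ENSMUSG00000061288, chromosome 5, 117120129 to 117275219, plus strand) belongs to the TAO kinase family, whose members can activate the MST and LATS kinases. WT libraries held 3167 and 3924 normalized counts of it, Lats1/2iΔLgr5 libraries 2391 and 2142. The groups were separate, but the nearest libraries were only 1.32-fold apart and the WT libraries themselves differed 1.24-fold. Means were 3546 ± 535 in WT and 2266 ± 177 in Lats1/2iΔLgr5 (SD, n = 2). The log2 difference was -0.65 ± 0.16 (SE), with 0.00861 as the adjusted p of the authors' deposited table. Unlike that of Lats1, this direction flipped under 1 scaling: the log2 fold change was -0.28 with TMM (edgeR adjusted p = 0.121), -0.24 with DESeq2 size factors, -0.04 with the listed total less the gastrokines and 0.05 with the full listed total. Relative to Cdh1, Taok3 was at 2.90% and 3.55% in WT and at 3.24% and 2.70% in Lats1/2iΔLgr5, so the groups overlapped. The ratio of Taok3 to Lats1, per kilobase of exon, also overlapped, at 0.963 and 1.30 in WT against 1.66 and 1.24 in Lats1/2iΔLgr5. Its close relatives Taok1 and Taok2 had no rows.

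Ajuba (ENSMUSG00000022178, chromosome 14, 54567469 to 54577661, minus strand) encodes a LIM-domain protein that binds LATS kinases at cell junctions and holds them inactive. WT libraries held 68.1 and 55.1 normalized counts, from 54 and 50 reads, against 403.8 and 373.6 in Lats1/2iΔLgr5, from 446 and 478 reads. The lower Lats1/2iΔLgr5 library was 5.48-fold above the higher WT library, and replicates differed by at most 1.24-fold. On the log2 scale it rose by 2.66 ± 0.28 (SE), and 1.48e-13 is its adjusted p in the authors' deposited table. By the deposited log2 fold change of 2.39, Ajuba ranked 17 of the 1158 genes that were higher. The rank depends on the estimate used: the endocrine marker Sst was at 1.60 by the deposited value and at 2.76 in edgeR. Per kilobase of exon, Ajuba stood at 6.34% and 5.59% of the Lats1 level in WT and at 85.7% and 66.2% of it in Lats1/2iΔLgr5, a 12.7-fold shift in which a higher Ajuba and a lower Lats1 combine. Relative to Cdh1 it was 9.06-fold higher, a ratio enlarged by Cdh1, which was lower in Lats1/2iΔLgr5 with the authors' size factors. Wtip, which encodes a LIM protein of the same family, was also higher, at 334.6 ± 19.3 in WT and 517.8 ± 21.6 in Lats1/2iΔLgr5 (SD, n = 2), while the third relative, Limd1, had no row.

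Ptpn14 (ENSMUSG00000026604, chromosome 1, 189728268 to 189876695, plus strand) encodes a non-receptor tyrosine phosphatase that binds YAP and promotes LATS activity. Libraries WT 1 and WT 2 held 188 and 121 normalized counts, and the Lats1/2iΔLgr5 libraries 478 and 494. The WT libraries lay 1.55-fold apart, the widest replicate gap among the 6 genes, and the Lats1/2iΔLgr5 libraries 1.03-fold. Even so, the lower Lats1/2iΔLgr5 library was 2.54-fold above WT 1. Group means were 154.7 ± 47.2 and 486 ± 11.2 (SD, n = 2). This is a rise of 1.65 ± 0.29 (SE) on the log2 scale, and 1.89e-05 is the adjusted p in the authors' deposited table. Because of the WT spread, the log2 fold change was 1.37 without WT 2 and 2.00 without WT 1. In GENCODE M21, 177 exonic bases of Ptpn14 lie opposite the antisense gene Gm26574. No source used here says whether reads were counted by strand, so reads from there cannot be assigned. Ptpn21, the nearest relative, had no row.

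Amotl2 (ENSMUSG00000032531, chromosome 9, 102716672 to 102733418, plus strand) encodes angiomotin-like 2, a junction scaffold that binds YAP and LATS and is itself a LATS substrate. WT libraries held 199 and 176 normalized counts of Amotl2, Lats1/2iΔLgr5 libraries 336 and 425. Neither group reached the other, with the nearest libraries 1.68-fold apart and the Lats1/2iΔLgr5 libraries 1.27-fold apart. The WT mean of 187.9 ± 16.2 compares with 380.5 ± 63.1 in Lats1/2iΔLgr5 (SD, n = 2). In log2 units the rise was 1.02 ± 0.25 (SE), and the authors' deposited table has 0.00602 as its adjusted p. Its size sat near the middle of the genes that were higher, whose median log2 fold change was 1.09. Amot and Amotl1, the other genes of the family, had no rows.

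Wwc2 (ENSMUSG00000031563, chromosome 8, 47826083 to 47990543, minus strand) encodes a WW-domain protein of the KIBRA family, scaffolds that bring LATS to its activators. WT libraries had 785 and 830.5 normalized counts, Lats1/2iΔLgr5 libraries 1439 and 1712. The WT libraries were within 1.06-fold of each other, the Lats1/2iΔLgr5 libraries within 1.19-fold, and the gap between the groups was 1.73-fold. The rise, from a mean of 807.7 ± 32.2 to 1576 ± 194 (SD, n = 2), was 0.96 ± 0.17 (SE) on the log2 scale. The adjusted p that the authors' deposited table lists for it is 4.01e-05. It was the most abundant by count of the 4 genes that rose. GENCODE M21 draws Wwc2 longer, over the 995 bases of the antisense gene Cldn22, which lie outside the deposited span. Wwc1, the KIBRA gene itself, had no row.

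The other scalings move the log2 fold changes of all genes up together, by a median of 0.36 to 0.69, so larger rises under them are fixed by that shift and support nothing. Across them Ajuba had log2 fold changes of 3.01 to 3.34, Ptpn14 2.01 to 2.34, Amotl2 1.38 to 1.72 and Wwc2 1.33 to 1.66. Relative to Cdh1 within each library, Ptpn14 was 4.50-fold, Amotl2 2.89-fold and Wwc2 2.79-fold higher in Lats1/2iΔLgr5, without overlap of the groups. With the authors' size factors Cdh1 was itself lower there, and it was chosen after its values were seen. The larger rises in these ratios are thus fixed in advance too and support nothing. The edgeR quasi-likelihood test on the authors' factors called all 6 genes (adjusted p from 0.0117 to 0.0164), as it did 99.9% of the listed genes, and the share of listed genes with groups that do not overlap was 42.9% higher and 57.1% lower. These shares leave nothing particular to the 6. Without Lats1/2iΔLgr5 2, edgeR called none of the 6 (adjusted p from 0.0702 to 0.0929), while 4 of them, all but Amotl2 and Taok3, had an unadjusted p under 0.05, and it then called 4 genes higher and 1 lower in the whole table. Adjusted over the 13141 genes the authors tested, edgeR's p for the 6 ranged from 0.057 to 0.0796. In that adjustment each gene that was not fitted was given the largest possible p. Such genes have no counts here, so it is not a test of them.

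**Figure D3:**
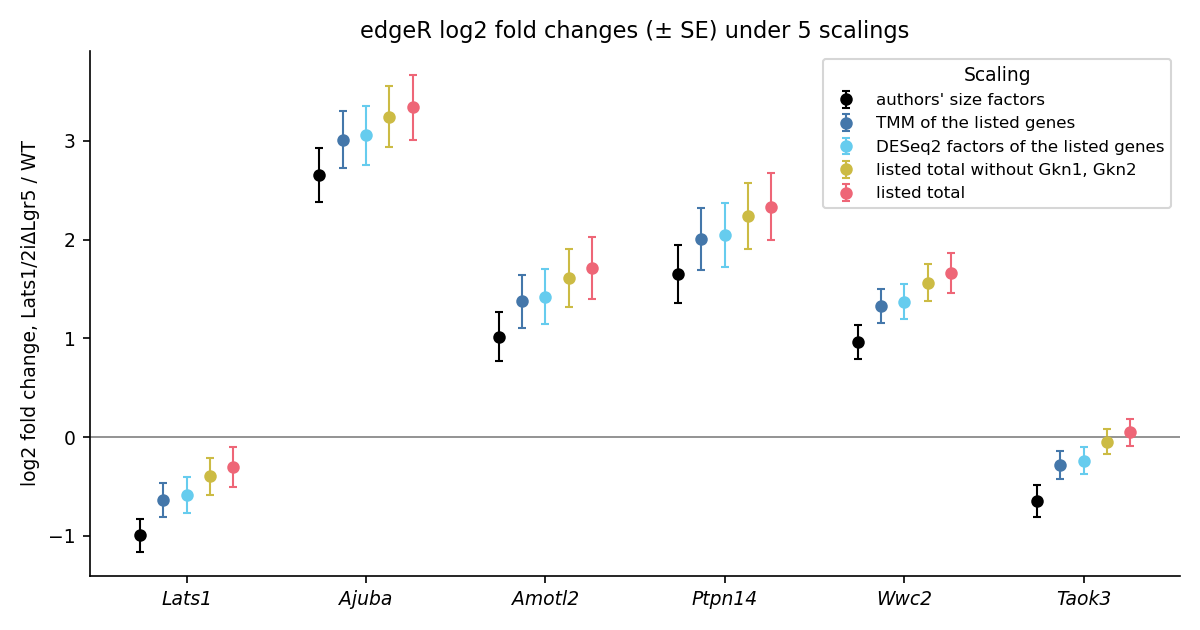
edgeR log2 fold changes of the 6 genes (Lats1/2iΔLgr5 over WT; error bars are SE) under 5 scalings of the 4 libraries. Ajuba, Amotl2, Ptpn14 and Wwc2 stay above 0.9 in all 5, Lats1 stays between -0.99 and -0.30, and Taok3 runs from -0.65 to 0.05.

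Levels of different genes were compared per kilobase of GENCODE exon. In WT, Lats1 (283 ± 17.2) and Taok3 (318 ± 48.0 normalized counts per kilobase; SD, n = 2) were highest and overlapped. Wwc2 followed at 58.6 ± 2.34, then Amotl2 at 29.9 ± 2.58, Ajuba at 16.9 ± 2.52 and Ptpn14 at 11.5 ± 3.52. Ajuba and Ptpn14 did not overlap but were close, with 15.1 in the lower Ajuba library and 14.0 in the higher Ptpn14 library. In Lats1/2iΔLgr5 the 6 genes spanned a narrower range. Taok3 (203 ± 15.8) and Lats1 (142 ± 18.1) still led, and Wwc2 (114 ± 14.0) and Ajuba (107 ± 5.86) came next with overlapping libraries, so that Ajuba was above Amotl2 (60.5 ± 10.0). Ptpn14 remained lowest, at 36.2 ± 0.838. Part of the Wwc2 exon length lies outside the deposited span, so reads there may not have been counted and its level per kilobase may be too low. The order depends in part on the length used: per kilobase of the longest coding transcript, Wwc2 (182 ± 22.3) was above Lats1 (144 ± 18.3) in Lats1/2iΔLgr5, and Taok3 (794 ± 120) was clear of Lats1 (286 ± 17.4) in WT.

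**Figure D4:**
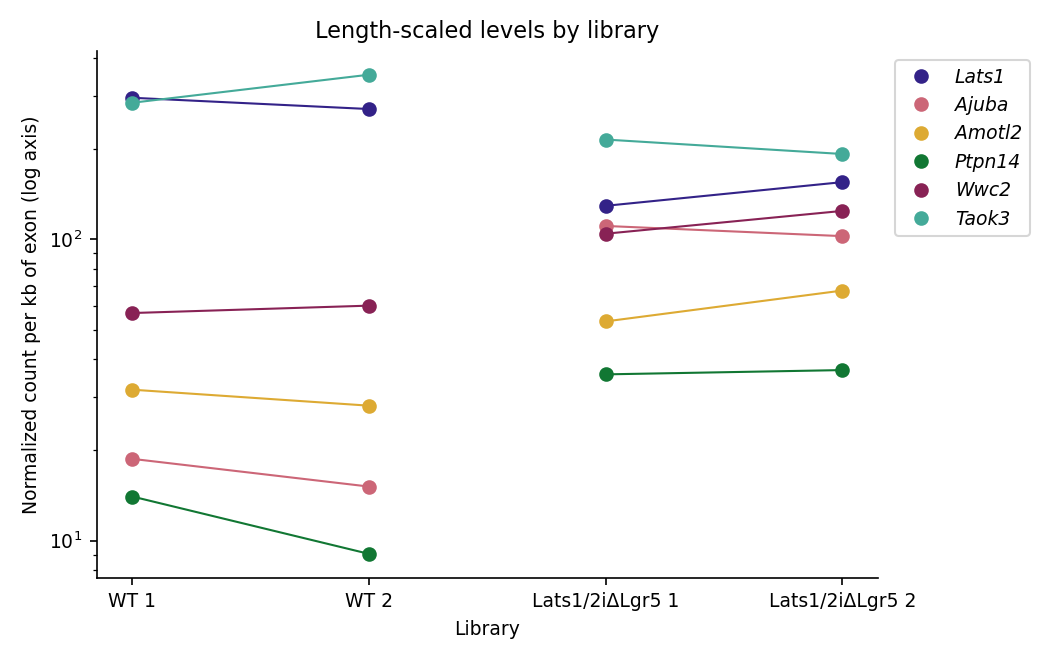
Normalized counts per kilobase of exon (log axis) of the 6 genes in each library, with lines joining the libraries of a group. Ajuba, at 15.1 to 18.7 in WT, lies below Amotl2 there and above it in Lats1/2iΔLgr5, at 102 to 111.

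Over the 5 lists of Hippo and YAP/TAZ genes, 31 of 109 annotated genes had a row, 15 of them higher and 16 lower. A row means that the authors called the gene, so this is 28.4% called, against 20.6% of all genes tested (8.81% higher and 11.7% lower). The 31 include the 6 genes described. These were picked from called genes, so part of the excess was fixed in advance. Without them, the 4 lists other than the YAP/TAZ targets had 20 rows among 85 genes (23.5% called), 9 higher and 11 lower. Shares of single lists that hold any of the 6 are raised in the same way. List members that the authors did not test are counted in the lists' totals. The median log2 fold change of the 31 was -0.44, against -0.50 over all listed genes. Of 17 annotated core kinases and adaptors, Lats1 and Taok3 alone had rows (11.8% called, against 20.6%), and both are among the 6 genes described. Among 24 upstream scaffolds 6 had rows (25% called, against 20.6%). Ptpn14, Amotl2 and Wwc2, the 3 that rose, are all among the 6 genes described. The other 3 fell: Fat4, a giant cadherin, the polarity gene Crb3 and Cdh1, with log2 fold changes of -1.42, -0.71 and -0.52. The Crb3 and Cdh1 changes missed the threshold with TMM (edgeR adjusted p = 0.126 and 0.293), and Cdh1 turned positive with both listed totals. Crb3 was at -0.0066 with the full listed total and at -0.45 without WT 2. Fat4 missed the threshold with DESeq2 size factors (-1.01, edgeR adjusted p = 0.0527) and was at -0.73 with the full listed total (edgeR adjusted p = 0.161).

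The 30 genes listed as restraints on LATS or MST had 11 rows, 5 higher and 6 lower (36.7% called, against the same 20.6%). Ajuba is among the 11, and without it there were 10 rows, 4 higher and 6 lower. Beside Ajuba and Wtip, the higher genes were Trip6, a zyxin-family LIM protein, with a log2 fold change of 1.54 ± 0.28 (SE), the receptor gene Fgfr4 with 2.41 ± 0.69, and the ubiquitin ligase gene Nedd4 with 0.57 ± 0.17. Fgfr4 rests on low counts, at 22.0 ± 17.1 in WT and 116.3 ± 46.7 in Lats1/2iΔLgr5 (SD, n = 2). The lower genes were the ubiquitin ligase gene Itch, the kinase genes Tnik and Mark2, and 3 genes of the STRIPAK phosphatase complex (Strn3, Ppp2ca and Pdcd10), from -0.68 to -0.44. Tnik belongs to the MAP4K family, given above as activating LATS. Its fall is therefore not read as that of a restraint, though the counts of this list include it. The 6 falls on this list had edgeR adjusted p from 0.145 to 0.563 with TMM. All 6 turned positive with the full listed total (5 of them, all but Tnik, also without the gastrokines). Mark2 was at -0.33 without WT 2, in place of -0.53. Ajuba, Trip6 and Wtip, the LIM protein genes of this list that had rows, were higher, and Limd1 and Zyx had no row. The Wtip call did not hold without WT 2 (edgeR adjusted p = 0.0775), without Lats1/2iΔLgr5 1 (0.087) or with the replicate number as a block (0.0573).

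Of 20 LATS substrates and their partners, 7 had rows (35% called, against 20.6%). Tead4, Tead2, Vgll3, Vgll4 and Csnk1e, which encode TEAD factors, TEAD cofactors and a casein kinase that marks YAP for degradation, had log2 fold changes of 0.91 to 2.22. Without Lats1/2iΔLgr5 2 that of Vgll3 was 1.36 in place of 2.22, and without WT 2 that of Vgll4 was 0.60 in place of 0.95, both then short of the edgeR threshold (adjusted p = 0.131 and 0.0664). The 14-3-3 genes Ywhab and Ywhaz, whose products hold phosphorylated YAP in the cytoplasm, were lower, by -0.56 and -0.48, and turned positive with both listed totals. Yap1 and Wwtr1 had no rows. From the 22-gene YAP/TAZ target signature, 7 genes had rows (31.8% called, against 20.6% of all genes tested, 8.81% higher and 11.7% lower). Of these, 4 were higher (Ccn2, Ptpn14, F3 and Amotl2). The other 3 were lower (Gadd45a, Nt5e and Dock5), with log2 fold changes of -1.36, -0.93 and -0.68. Ptpn14 and Amotl2 are among the genes picked for description here, and without them 2 signature genes were higher and 3 lower. Nt5e and Dock5 missed the threshold with TMM (edgeR adjusted p = 0.0969 and 0.134). With the full listed total Gadd45a was at -0.68 (edgeR adjusted p = 0.136), Nt5e at -0.26 and Dock5 at 0.02, a change of sign. Without Lats1/2iΔLgr5 2, F3 had a log2 fold change of 0.48 in place of 1.06 and Nt5e one of -0.61 in place of -0.93, and both missed the edgeR threshold (adjusted p = 0.0987 and 0.0731). Ccn2, a secreted matrix-associated protein, was at 72.8 ± 7.75 in WT and 369.2 ± 39.4 in Lats1/2iΔLgr5 (SD, n = 2).

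**Figure D5:**
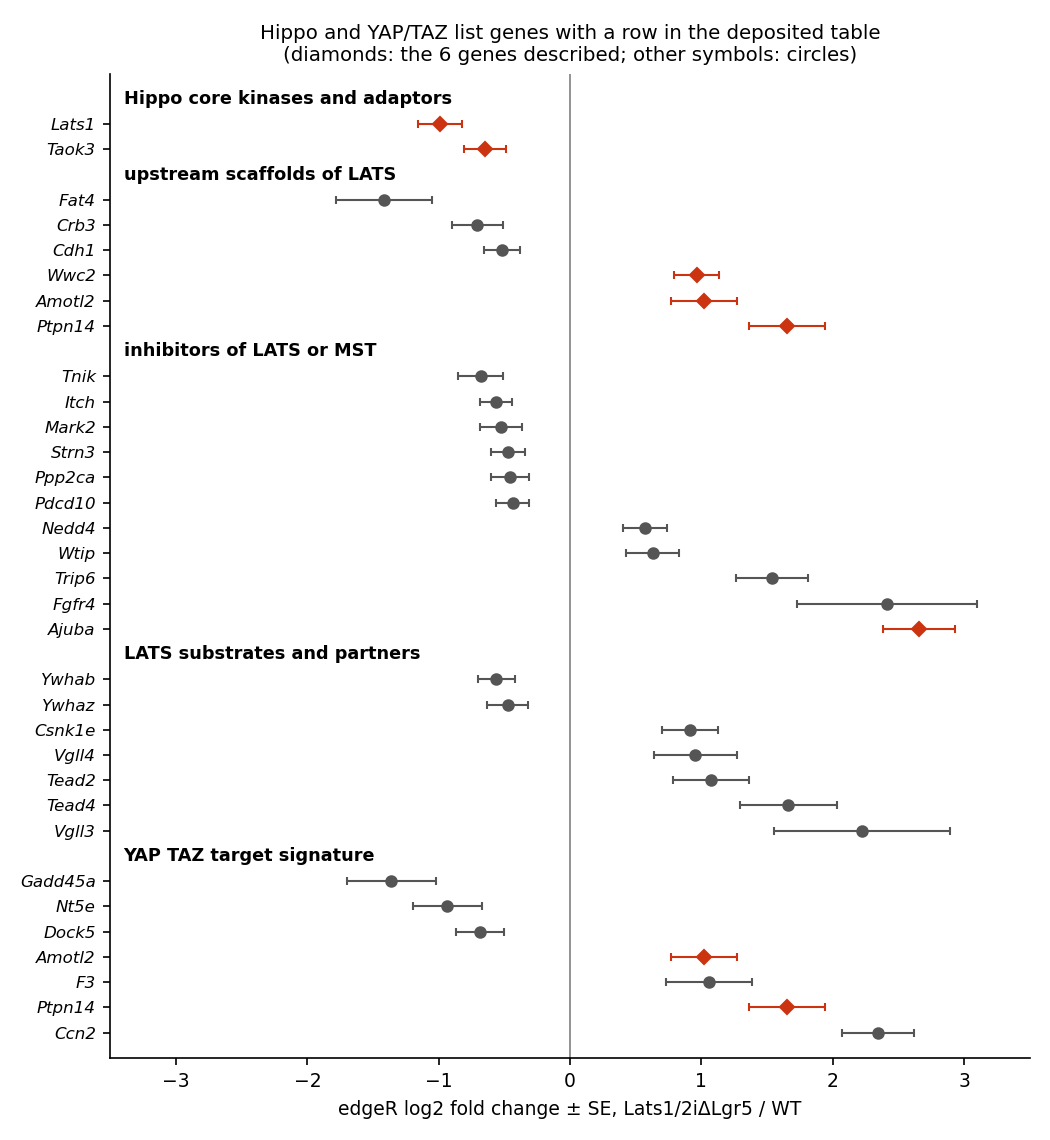
edgeR log2 fold changes (Lats1/2iΔLgr5 over WT, authors' size factors; error bars are SE) of the genes of 5 Hippo and YAP/TAZ lists that have a row, grouped by list. Diamonds are the 6 genes described and circles the others; genes on 2 lists appear under each, and the values run from -1.42 (Fat4) to 2.66 (Ajuba).

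The genes of similar pattern were sought among 2469 named protein-coding genes with a base mean of at least 100, by Euclidean distance of centred log2(normalized count + 1) over the 4 libraries. Ccn2 was nearest to Ajuba (distance 0.398), followed by the plexin gene Plxnb1 and the adhesion molecule gene Bcam. Nearest to Ptpn14 were Ecscr (0.124), Top1mt and Cdca7. Amotl2 lay closest to Fastkd2 (0.048), Aldh7a1 and Dph5, and Wwc2 to Gabbr1 (0.019), Ntmt1 and Aaas. For Lats1 the nearest were St8sia6 (0.155), Ankrd22 and Ccdc141, and for Taok3 Fam13b (0.026), Rffl and Ppp1r12a. Within the 6, Amotl2 and Wwc2 were most alike (0.198), followed by Lats1 and Taok3 (0.557), and Lats1 and Ajuba least (3.65). A distance over 4 libraries mostly reflects the size of the group difference and the spread of 1 pair in each group.

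Listed counts per library ran from 13413629 to 17689207, and replicates differed by more than sampling noise (chi-square per gene of 131 in WT and 128 in Lats1/2iΔLgr5). Of 17 pyloric epithelium markers 9 had rows, all lower in Lats1/2iΔLgr5 (52.9% called, against 20.6% of all genes tested). Their summed level was 4872897 and 5253023 normalized counts in WT, against 2716592 and 2337323 in Lats1/2iΔLgr5. Most of that sum is Gkn1 and Gkn2, and the other 7 markers summed to 876691 and 1133741 in WT and 546159 and 699712 in Lats1/2iΔLgr5. With TMM, 6 of the 9 markers, Krt8 and Cdh1 among them, missed the edgeR threshold. Of 16 stromal, muscle and endothelial markers Col3a1, Col1a2 and Kdr had rows, all lower (18.8% called, against 20.6%). They summed to 9699 and 12894 in WT and 7201 and 6090 in Lats1/2iΔLgr5. All 3 missed the edgeR threshold with TMM (adjusted p = 0.0752, 0.0807 and 0.184). Lats1 and Taok3 were lower in the same libraries, and the part of tissue makeup in their difference was not tested beyond the ratios to Cdh1 and Krt8. Of 15 parietal, chief, endocrine and squamous markers Ghrl, Sst and Krt4 had rows, all higher (20% called, against 20.6%). Their sums were 94.6 and 127 in WT and 464.5 and 1748 in Lats1/2iΔLgr5. Lats1/2iΔLgr5 2 was the higher of its group in that sum by a wide margin. Most of the margin was Ghrl, at 1288 in Lats1/2iΔLgr5 2 against 246.3 in Lats1/2iΔLgr5 1. Sst was higher there too (336.9 against 71.5), and Krt4 was lower (123.5 against 146.7). Amotl2, Wwc2 and, by only 1.03-fold, Ptpn14 were also higher in Lats1/2iΔLgr5 2 than in Lats1/2iΔLgr5 1, and Ajuba was lower. The part of these cell types in the 4 rises was not tested. No immune marker of 17 had a row (0% called, against 20.6%).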

How the data were processed

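Poly(A) RNA of 4 libraries was sequenced as strand-marked read pairs of 75 bp, per the labels' protocols. TopHat2 2.1.1, HTSeq, DESeq2 and GRCm38 are named in the submitters' processing notes, without settings. The deposited table gives raw, unscaled counts for each gene in each library. Columns named in the file headers add the authors' base mean (a signal over normalized counts), log2 fold change, Wald statistic (a score), p-value and adjusted p-value. Its largest adjusted p is 0.05, and the 13141 genes tested were inferred from p and adjusted p.

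Size factors were recovered from base means and counts (largest deviation 0.0119%). edgeR 4.0.16 (quasi-likelihood, filterByExpr, Benjamini-Hochberg over the rows fitted, threshold 0.05) was fitted on the 2700 rows that passed the filter and tested on simulated data; DESeq2 1.42.0, other scalings, no filter, a replicate block and leaving out each library were alternatives. Symbols and exon lengths came from GENCODE M21 (2698 IDs matched), promoters from RefSeq. 1 was added to deposited starts. Named are the 6 genes, every Hippo or YAP/TAZ list gene with a row, and the 3 most similar genes each. Members and lists were chosen with earlier results of these data known. Intervals of single counts are not given, since the spread between libraries is larger. Protein sequences were not used here.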

Additional observations from a re-analysis of the deposited data

How the results depend on the processing

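The 6 genes kept their direction in every fit but 1, Taok3 with the full listed total (0.049). With that scaling the log2 fold change of Lats1 was -0.30, and without the gastrokines it was -0.40, with Taok3 at -0.044; both missed the threshold there. Taok3 also missed it with TMM (-0.28) and DESeq2 factors (-0.24). Other Hippo genes that turned positive with the full listed total were Cdh1 (0.18), Mark2 (0.18), Strn3 (0.22), Pdcd10 (0.26), Ppp2ca (0.23), Itch (0.13), Tnik (0.019), Ywhab (0.14), Ywhaz (0.22) and Dock5 (0.021), and without the gastrokines Cdh1 (0.079), Mark2 (0.080), Strn3 (0.12), Pdcd10 (0.16), Ppp2ca (0.14), Itch (0.035), Ywhab (0.037) and Ywhaz (0.13). These scalings shift the median log2 fold change up by 0.36 (TMM), 0.41 (DESeq2 factors), 0.60 and 0.69 (listed totals without and with the gastrokines). edgeR called 1157 genes higher and 1541 lower, and 494, 432, 227 and 173 lower in that order of scalings, by construction of the shift. With adjustment over 13141 genes, those not fitted being given the largest possible p, edgeR called 3 higher, 1 lower and 0 of the 6 genes. The log2 fold changes of the 6 are as before (Lats1 -0.99, Ajuba 2.66, Amotl2 1.02, Ptpn14 1.65, Wwc2 0.96, Taok3 -0.65). At an unadjusted p under 0.05 all 6 passed, as they did in DESeq2. Leaving out 1 library gave 4 to 1038 genes higher, 1 to 1416 lower and 0 to 6 of the 6 called, the fewest without Lats1/2iΔLgr5 2, after which 1 Lats1/2iΔLgr5 library is assumed to vary like the WT group. Their log2 fold changes then ranged from -1.13 to -0.87 (Lats1), 2.51 to 2.81 (Ajuba), 0.84 to 1.18 (Amotl2), 1.37 to 2.00 (Ptpn14), 0.83 to 1.08 (Wwc2) and -0.79 to -0.48 (Taok3). The labels do not say that replicate numbers pair libraries. With a replicate block edgeR called 1084 higher, 1451 lower and 6 of the 6 genes; of the other 25 Hippo and YAP/TAZ genes it lost the call of Wtip (0.63). Across genes the replicate differences of the groups correlated at -0.162, and with crossed pairing, chosen after seeing the data, 1142 and 1518 genes were called. Level per kilobase with the longest coding transcript, also chosen after seeing the data, moved 8 of 12 group means by more than their SD. Depth limits Ajuba most, at 50 and 54 reads in WT.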
